A study of Caenorhabditis elegans with 12 samples.

Results

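The 10 genes described here encode both routes by which the nematode Caenorhabditis elegans breaks down propionate. They were taken by name, 5 genes of the propionate shunt (acdh-1, ech-6, hach-1, hphd-1 and alh-8) and 5 genes of the vitamin B12-dependent route (pcca-1, pccb-1, mce-1, mmcm-1 and mmaa-1), and all 10 were found among the 46926 genes measured. Polyadenylated RNA of whole worms at the fourth larval stage (L4) was sequenced in 12 libraries, 3 labelled biological replicates of each of 4 strains. The strains were the double mutant nuo-6(qm200); itr-1(sa73), the single mutant nuo-6(qm200), the single mutant itr-1(sa73) and the laboratory wild type N2. Every culture was fed the E. coli strain HT115 carrying an empty vector. The gene nuo-6 encodes a subunit of mitochondrial complex I, and itr-1 encodes the InsP3 receptor, which releases calcium from the endoplasmic reticulum. The allele qm200 lowers complex I function and sa73 is a temperature-sensitive, partial loss of function, so neither single mutant is a null, and the growth temperature is not given in the labels. The comparisons ask how transcripts differ when complex I, the InsP3 receptor or both are impaired, and the study's title places them in a study of longevity under mitochondrial stress.

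Propionate, in its activated form propionyl-CoA, arises from the breakdown of branched-chain amino acids, methionine, threonine and odd-chain fatty acids, and it is toxic when it accumulates. With enough vitamin B12, propionyl-CoA is carboxylated and rearranged to succinyl-CoA, which enters the TCA cycle. Without it, worms use the shunt, a beta-oxidation-like path through acryloyl-CoA and malonate semialdehyde to acetyl-CoA, and the promoter of acdh-1 is widely used as a reporter of low B12 supply in intestine and hypodermis. Worms take the vitamin from their bacteria, and neither B12 nor propionate was measured in the values used here.

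Values were TPM, the length-corrected share of a library's transcripts, so levels can be compared between genes. All 10 genes passed the filter on low values, with single-library levels of 29.7 to 674 TPM. The read depth cannot be read from TPM, so the precision rests on the 3 libraries per strain, and p-values measure the spread between these labelled replicates. Changes are log2 folds ± SE of log2(TPM + 1), and a gene rose or fell where limma's adjusted p over the 15230 genes tested was under 0.05. The median fold of all genes tested was not 0 but 0.18 in nuo-6 against N2, 0.14 in itr-1 against N2 and 0.25 in the double mutant against N2. Median-of-ratios scaling, which sets the typical gene equal between libraries, brought these to 0.00, -0.01 and -0.01. Libraries of 1 strain correlated at 0.975 to 0.992 across genes.

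Markers of stage and tissue differed between the strains, and none of those matched was at 0 in all 12 libraries. The summed level of 20 oocyte and early embryo markers was 564 to 1616 TPM in the double mutant, 733 to 889 in nuo-6, 855 to 2084 in itr-1 and 249 to 531 TPM in N2, and 18, 13 and 20 of the 20 rose against N2 in the same order. Of all genes tested, 46.3%, 37.3% and 29.0% rose in these comparisons, in that order. The summed level of 6 adult markers (vitellogenins and the adult collagen col-19) was 369 to 1779 TPM in the double mutant, 1469 to 2767 in nuo-6, 1144 to 4870 in itr-1 and 235 to 1220 TPM in N2. The sums hide the direction of single markers. In the double mutant against N2 1 of the 6 rose and 2 fell, with a median log2 fold of -1.47, where 17.0% of all genes fell. In nuo-6 and in itr-1 against N2 1 rose and 0 fell in each, with medians of 1.41 and 1.75. The sum of 10 intestine markers was 4721 to 5967 TPM in the double mutant, 3495 to 3877 in nuo-6, 5318 to 6024 in itr-1 and 3848 to 4206 TPM in N2, so this sum was higher in both strains with the itr-1 allele. Of 8 hypodermis markers 4 rose and 3 fell in itr-1 against N2 (2 and 3 with median-of-ratios scaling), with sums of 2477 to 4004 TPM in itr-1 and 3086 to 3258 TPM in N2, and their part in the results was not tested. In itr-1 against N2 29.0% of all genes tested rose and 11.1% fell. In whole worms, fewer cells of a type and less RNA per cell cannot be told apart. N2 replicate 2 stood apart from the other N2 libraries, with the lowest N2 level of all 5 shunt genes and the highest of all 5 B12-dependent genes, and its adult marker sum was the highest of the 3 (1220 TPM against 235 and 484 TPM).

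The shunt begins with acdh-1 (WBGene00016943, chromosome I, positions 6497436 to 6499560, plus strand, build WBcel235), the dehydrogenase that turns propionyl-CoA into acryloyl-CoA. It stood at 255, 268 and 180 TPM in the double mutant, 674, 397 and 612 TPM in nuo-6, 50.9, 29.7 and 41.5 TPM in itr-1 and 551, 262 and 568 TPM in N2. The itr-1 libraries were the lowest and overlapped no other strain, while N2 overlapped both nuo-6 and the double mutant. The next enzyme, the enoyl-CoA hydratase ech-6 (WBGene00001155, chromosome III, positions 9751552 to 9752883, minus strand), adds water to acryloyl-CoA. Its levels were 293, 290 and 283 TPM in the double mutant, 583, 463 and 546 TPM in nuo-6, 167, 158 and 161 TPM in itr-1 and 352, 272 and 350 TPM in N2. Here nuo-6 was the highest and itr-1 the lowest, and the double mutant lay within the N2 range.

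The hydrolase gene hach-1 (WBGene00017301, chromosome III, positions 5555450 to 5557318, plus strand) releases the CoA from hydroxypropionyl-CoA. It was measured at 84.2, 82.4 and 87.6 TPM in the double mutant, 137, 117 and 124 TPM in nuo-6, 66.9, 64.1 and 65.7 TPM in itr-1 and 115, 97.1 and 111 TPM in N2, and no pair of strains overlapped. The dehydrogenase gene hphd-1 (WBGene00012608, chromosome II, positions 12994354 to 12996571, minus strand) oxidises the free hydroxypropionate. Its levels were 106, 107 and 99.1 TPM in the double mutant, 202, 166 and 196 TPM in nuo-6, 42, 35.6 and 40.4 TPM in itr-1 and 180, 117 and 184 TPM in N2. As for acdh-1, the itr-1 libraries were far below the others and N2 replicate 2 was well below its 2 fellow libraries. The last shunt gene, alh-8 (WBGene00000114, chromosome II, positions 11729055 to 11731198, plus strand), encodes the malonate semialdehyde dehydrogenase that yields acetyl-CoA, and F13D12.8 overlaps it on the other strand. It stood at 390, 364 and 399 TPM in the double mutant, 401, 372 and 393 TPM in nuo-6, 269, 275 and 275 TPM in itr-1 and 433, 374 and 409 TPM in N2, so that only itr-1 was set apart and the other strains overlapped. The libraries were stranded per the labels' protocols, and whether the counting used the strand is not given in the sources used here.

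**Figure D1:**
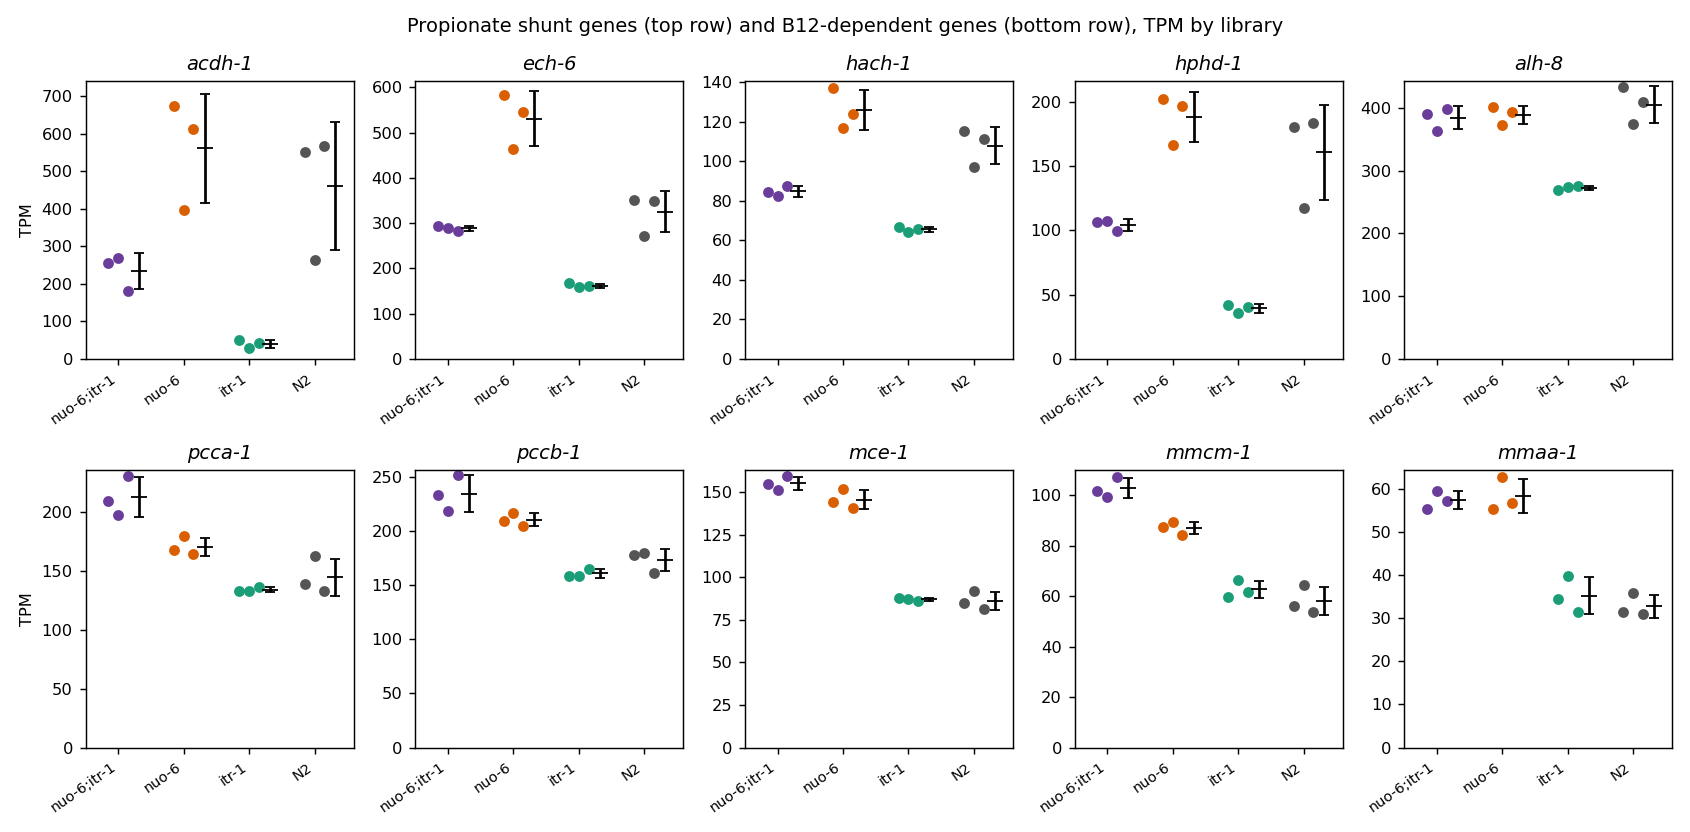
TPM (vertical axes, from 0) of the 5 shunt genes in the top row and the 5 B12-dependent genes in the bottom row, by strain along the horizontal axes. Points are single libraries in replicate order, and the bars beside them give the mean ± SD of 3 libraries. In the top row itr-1 is the lowest strain in every panel (acdh-1 40.7 ± 10.6 TPM), while in the bottom row the double mutant and nuo-6 stand above itr-1 and N2 (mce-1 155 ± 3.91 and 146 ± 5.63 against 87.0 ± 0.773 and 86.1 ± 5.24 TPM).

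The B12-dependent route opens with propionyl-CoA carboxylase, a biotin enzyme whose subunits are encoded by pcca-1 (WBGene00017864, chromosome X, positions 7657542 to 7660986, minus strand) and pccb-1 (WBGene00018701, chromosome X, positions 3089549 to 3092437, plus strand, overlapped by wrt-2 on the other strand). The level of pcca-1 was 209, 198 and 231 TPM in the double mutant, 168, 179 and 165 TPM in nuo-6, 133, 133 and 136 TPM in itr-1 and 139, 162 and 133 TPM in N2. That of pccb-1 was 233, 219 and 252 TPM in the double mutant, 210, 217 and 205 TPM in nuo-6, 159, 159 and 165 TPM in itr-1 and 178, 180 and 162 TPM in N2. Both subunits were highest in the double mutant, next in nuo-6, and overlapped between itr-1 and N2.

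The epimerase gene mce-1 (WBGene00008415, chromosome I, positions 7582106 to 7583333, plus strand) turns over methylmalonyl-CoA for the mutase. It was at 155, 151 and 159 TPM in the double mutant, 144, 152 and 141 TPM in nuo-6, 87.7, 87.0 and 86.2 TPM in itr-1 and 85.1, 91.8 and 81.5 TPM in N2. The strains thus formed a high pair and a low pair, with overlap within each. The mutase gene mmcm-1 (WBGene00014202, chromosome III, positions 3903185 to 3907687, minus strand) encodes the enzyme that needs adenosyl-B12 and makes succinyl-CoA. Its levels were 102, 99.4 and 107 TPM in the double mutant, 87.6, 89.2 and 84.2 TPM in nuo-6, 59.7, 66.5 and 61.7 TPM in itr-1 and 56.0, 64.3 and 53.9 TPM in N2, and the double mutant was above every other library. The gene mmaa-1 (WBGene00020169, chromosome II, positions 7099583 to 7101165, minus strand) is named for its human counterpart MMAA, a chaperone of the mutase. It had the lowest mean level of the 10 genes over all libraries, with 55.4, 59.5 and 57.1 TPM in the double mutant, 55.3, 62.8 and 56.7 TPM in nuo-6, 34.5, 39.8 and 31.4 TPM in itr-1 and 31.5, 35.8 and 30.9 TPM in N2, again a high and a low pair of strains.

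The whole shunt fell in itr-1 against N2, and no gene of the B12-dependent route passed. All 5 shunt genes fell, where 11.1% of all genes tested fell, and none of the 10 genes rose, where 29.0% rose. The 5 changed genes of 10 stood beside 40.1% of all genes that changed in either direction. The shunt's median fold was -0.99 against 0.14 for all genes. The first enzyme and the hydroxypropionate dehydrogenase had the largest falls, acdh-1 by 3.42 ± 0.32 (adjusted p = 2.93e-05) and hphd-1 by 1.98 ± 0.15 (adjusted p = 7.54e-06). Levels of acdh-1 were 40.7 ± 10.6 TPM in itr-1 and 460 ± 172 TPM in N2 (SD, n = 3 each), a fold of 0.0936 on the fitted scale, and its log2 fold lay at percentile 0.0591 of all genes tested. The enoyl-CoA hydratase ech-6 fell by 0.99 ± 0.10, hach-1 by 0.71 ± 0.07 and alh-8 by 0.57 ± 0.06, with adjusted p of 5.78e-05, 6.23e-05 and 5.78e-05. Libraries of both strains did not overlap in any of the 5, where 50.8% of all genes did not overlap. Of the 5 B12-dependent genes none passed, with a median of 0.02 and folds between -0.10 and 0.11. The interval of the mce-1 difference was -0.10 to 0.13 and that of mmcm-1 was -0.05 to 0.27. Without N2 replicate 2, the library that stood apart, mmcm-1 passed as a rise of 0.19 (adjusted p = 0.0423). Relative to the median of all genes the B12-dependent route lay lower, and median-of-ratios scaling turned mce-1, mmcm-1 and mmaa-1 to -0.16, -0.07 and -0.07 and called pcca-1 (-0.28), pccb-1 (-0.28) and mce-1 lower. Falls of the 5 shunt genes passed under every alternative tried, acdh-1 between -3.78 and -2.91, including those with the oocyte marker mean (acdh-1 at -2.91, adjusted p = 0.00503) or the adult marker mean (-3.18, adjusted p = 9.7e-05) as a covariate. The oocyte marker mean of log2(TPM + 1) was 3.54 to 4.51 in N2 and 5.14 to 6.34 in itr-1. These ranges did not overlap, so that fit cannot tell strain and marker level apart, and the part of stage was not tested.

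In nuo-6 against N2 all genes of the B12-dependent route rose, the carboxylase genes less firmly than the others, and of the shunt only its hydratase and hydrolase passed. All 5 B12-dependent genes rose, where 37.3% of all genes tested rose, with a median of 0.58 against 0.18 for all genes. In all 7 of the 10 genes changed, where 52.3% of all genes did. The folds were 0.81 ± 0.09 for the chaperone gene mmaa-1 (adjusted p = 3.1e-05), 0.75 ± 0.05 for the epimerase mce-1 (adjusted p = 1.34e-06) and 0.58 ± 0.07 for the mutase mmcm-1 (adjusted p = 5.97e-05). The carboxylase subunits changed less, pcca-1 by 0.24 ± 0.08 and pccb-1 by 0.28 ± 0.06 (adjusted p = 0.0232 and 0.00269), and with median-of-ratios scaling they were at 0.04 and 0.08 and did not pass. The call of pcca-1 was also lost without N2 replicate 1, N2 replicate 3 or nuo-6 replicate 2 (adjusted p = 0.0787, 0.0935 and 0.0853) and with the oocyte marker mean as a covariate (adjusted p = 0.0657). In the shunt, ech-6 rose by 0.71 ± 0.10, to 531 ± 61.2 TPM in nuo-6, against 325 ± 45.3 TPM in N2 (adjusted p = 1.8e-04). The rise of hach-1 was 0.22 ± 0.07 (adjusted p = 0.0252), and it was 0.02 with median-of-ratios scaling and did not pass without N2 replicate 2, nuo-6 replicate 1 or nuo-6 replicate 3 (adjusted p = 0.0941, 0.104 and 0.0517). The shunt's first gene acdh-1 did not pass at 0.33 ± 0.32, with an interval of -0.37 to 1.03, and without N2 replicate 2 its fold was -0.03. For hphd-1 the fold was 0.25 with an interval of -0.08 to 0.58, and for alh-8 it was -0.06 with -0.19 to 0.07. With median-of-ratios scaling and with quantile normalization alh-8 passed as a fall, at -0.26 and -0.29 (adjusted p = 0.0202 and 0.00578). Libraries did not overlap in 7 of the 10 genes, where 66.0% of all genes did not overlap.

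**Figure D2:**
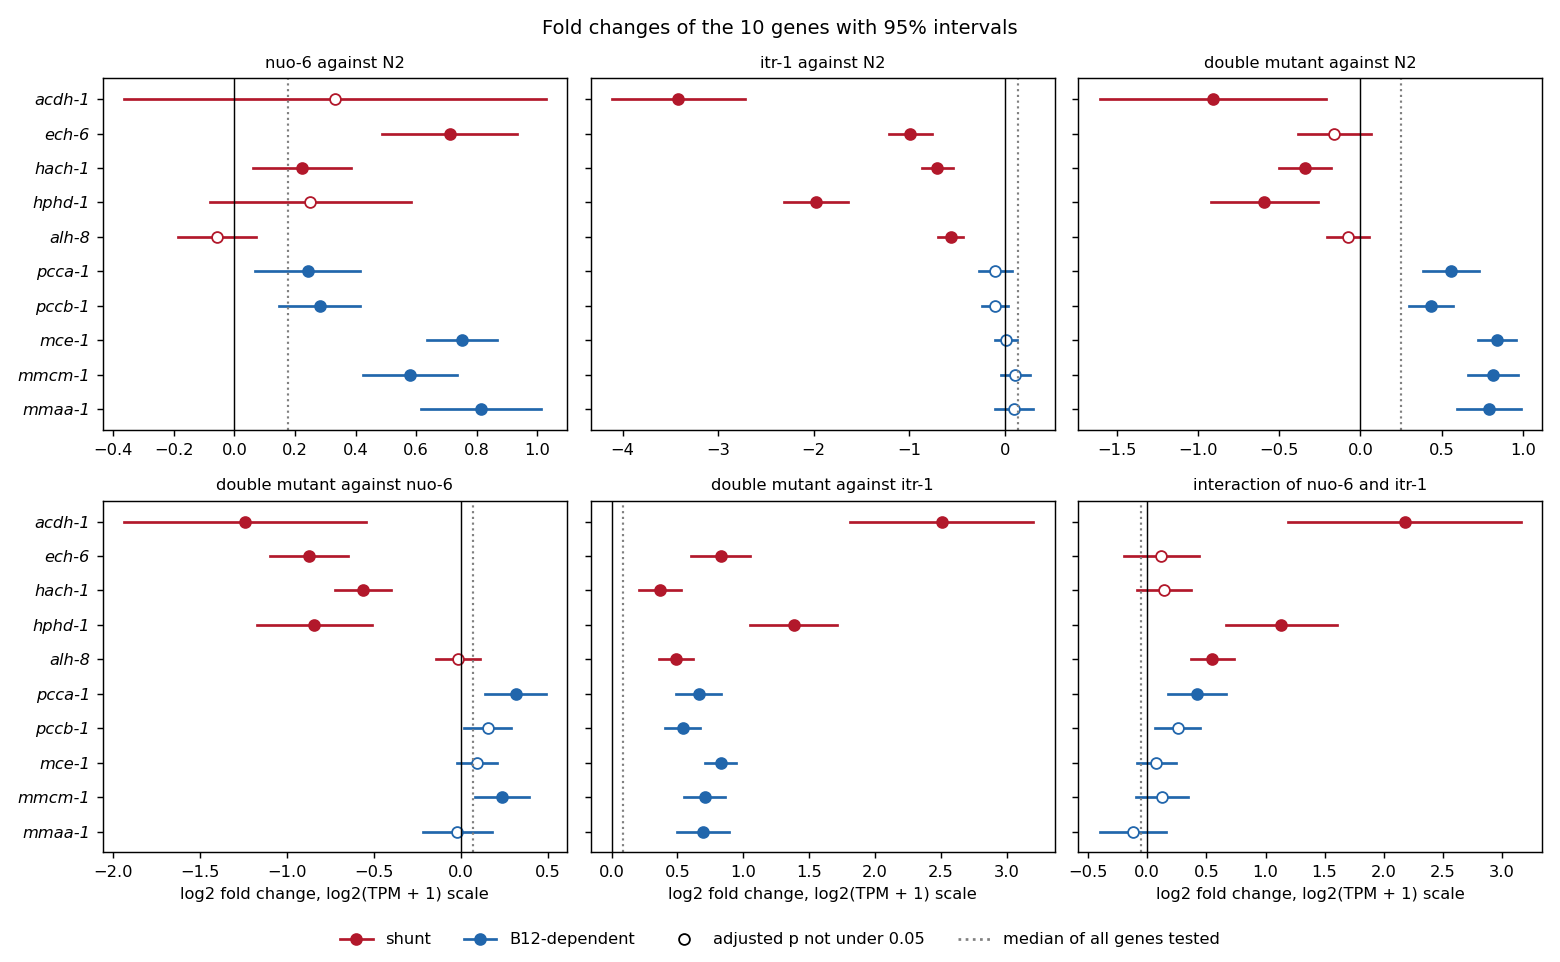
Log2 fold changes of log2(TPM + 1) with 95% intervals (horizontal axes, each panel with its own range) for the 10 genes in the 5 comparisons of strains and the interaction. Filled points passed at an adjusted p under 0.05, red marks the shunt, blue the B12-dependent route, and the dotted line the median of all genes tested. The shunt lies left of zero in itr-1 against N2 (acdh-1 at -3.42), and all 10 genes lie right of it in the double mutant against itr-1.

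Double mutants differed from N2 in opposite directions along both routes. The 5 B12-dependent genes rose, where 46.3% of all genes tested rose, with a median of 0.79 against 0.25 for all genes, while 3 shunt genes fell, where 17.0% of all genes fell, with a median of -0.34 over the 5. In all 8 of the 10 changed, where 63.3% of all genes did, and libraries did not overlap in 7, where 67.2% of all genes did not overlap. The epimerase gene mce-1 rose by 0.84 ± 0.05 (adjusted p = 3.77e-07), mmcm-1 by 0.82 ± 0.07 and mmaa-1 by 0.79 ± 0.09. The carboxylase genes rose by 0.56 ± 0.08 for pcca-1 and 0.44 ± 0.06 for pccb-1, of which pccb-1 did not pass with median-of-ratios scaling (0.14, adjusted p = 0.126). In the shunt, acdh-1 fell by 0.91 ± 0.32 (adjusted p = 0.0263), hphd-1 by 0.59 ± 0.15 (adjusted p = 0.00539) and hach-1 by 0.34 ± 0.07 (adjusted p = 0.00201). The call of acdh-1 was lost without N2 replicate 1, N2 replicate 3 or double mutant replicate 3 (adjusted p = 0.0966, 0.1 and 0.0879), and those of all 3 with the oocyte marker mean as a covariate, at -0.49, -0.33 and -0.20 for acdh-1, hphd-1 and hach-1. The hydratase ech-6 was at -0.16 with an interval of -0.38 to 0.06, and passed without N2 replicate 2 (-0.28, adjusted p = 0.0136). The fold of alh-8 was -0.08 with an interval of -0.20 to 0.05. With median-of-ratios scaling both passed, so that all 5 shunt genes fell (ech-6 at -0.45, alh-8 at -0.37).

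The first 4 genes of the shunt were lower when nuo-6 worms also carried the itr-1 allele, while alh-8 did not pass. In the double mutant against nuo-6, acdh-1 fell by 1.24 ± 0.32 (adjusted p = 0.0235), ech-6 by 0.87 ± 0.10 (adjusted p = 3.96e-04), hphd-1 by 0.84 ± 0.15 (adjusted p = 0.00407) and hach-1 by 0.56 ± 0.07 (adjusted p = 7.06e-04), where 5.46% of all genes tested fell. Over both routes 6 of the 10 changed, where 15.4% of all genes did. The median of the 5 was -0.84 against 0.07 for all genes, and ech-6 was at 288 ± 5.18 TPM in the double mutant and 531 ± 61.2 TPM in nuo-6 (SD, n = 3 each). The fold of alh-8 was -0.02 with an interval of -0.15 to 0.11, and with quantile normalization it was 0.14. On the B12-dependent route pcca-1 rose by 0.31 ± 0.08 (adjusted p = 0.0214) and mmcm-1 by 0.24 ± 0.07 (adjusted p = 0.044), where 9.99% of all genes rose, and the median of the 5 was 0.15. Neither passed with median-of-ratios scaling (adjusted p = 0.0967 and 0.207). Over all alternatives tried, direction and call held in 19 of 25 for pcca-1 and in 14 of 25 for mmcm-1. The calls of acdh-1 and pcca-1 were each lost without nuo-6 replicate 1 or 3 and without double mutant replicate 1 or 3 (adjusted p up to 0.0886 for acdh-1 and 0.0878 for pcca-1), and that of mmcm-1 without any 1 of the 6 libraries (up to 0.152). Intervals were 0.02 to 0.29 for pccb-1, -0.02 to 0.21 for mce-1 and -0.22 to 0.18 for mmaa-1. Libraries of both strains did not overlap in 4 shunt and 3 B12-dependent genes, where 39.6% of all genes did not overlap.

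All 10 genes were higher when itr-1 worms also carried the nuo-6 allele. In the double mutant against itr-1 the 5 shunt genes rose with a median of 0.83 and the 5 B12-dependent genes with a median of 0.69, where 29.3% of all genes tested rose and the median over all genes tested was 0.09, and no library overlapped in any of the 10, as in 51.3% of all genes. None of the 10 fell, where 16.4% of all genes fell, and 45.7% of all genes changed in either direction. The largest rise was that of acdh-1, 2.51 ± 0.32 (adjusted p = 1.34e-04), with 234 ± 47.6 TPM in the double mutant and 40.7 ± 10.6 TPM in itr-1 (SD, n = 3 each). The dehydrogenase gene hphd-1 rose by 1.38 ± 0.15 (adjusted p = 4.94e-05), ech-6 by 0.83 ± 0.10 and alh-8 by 0.49 ± 0.06. The smallest shunt rise was hach-1 at 0.37 ± 0.07, whose call was lost with the adult marker mean as a covariate (0.23, adjusted p = 0.0588). On the B12-dependent route the folds ran in a narrow band, from 0.54 ± 0.06 for pccb-1 to 0.83 ± 0.05 for mce-1 (adjusted p = 6.35e-05 and 1.46e-06). Apart from hach-1 with that covariate, all 10 calls held under every alternative tried, median-of-ratios scaling included.

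**Figure D3:**
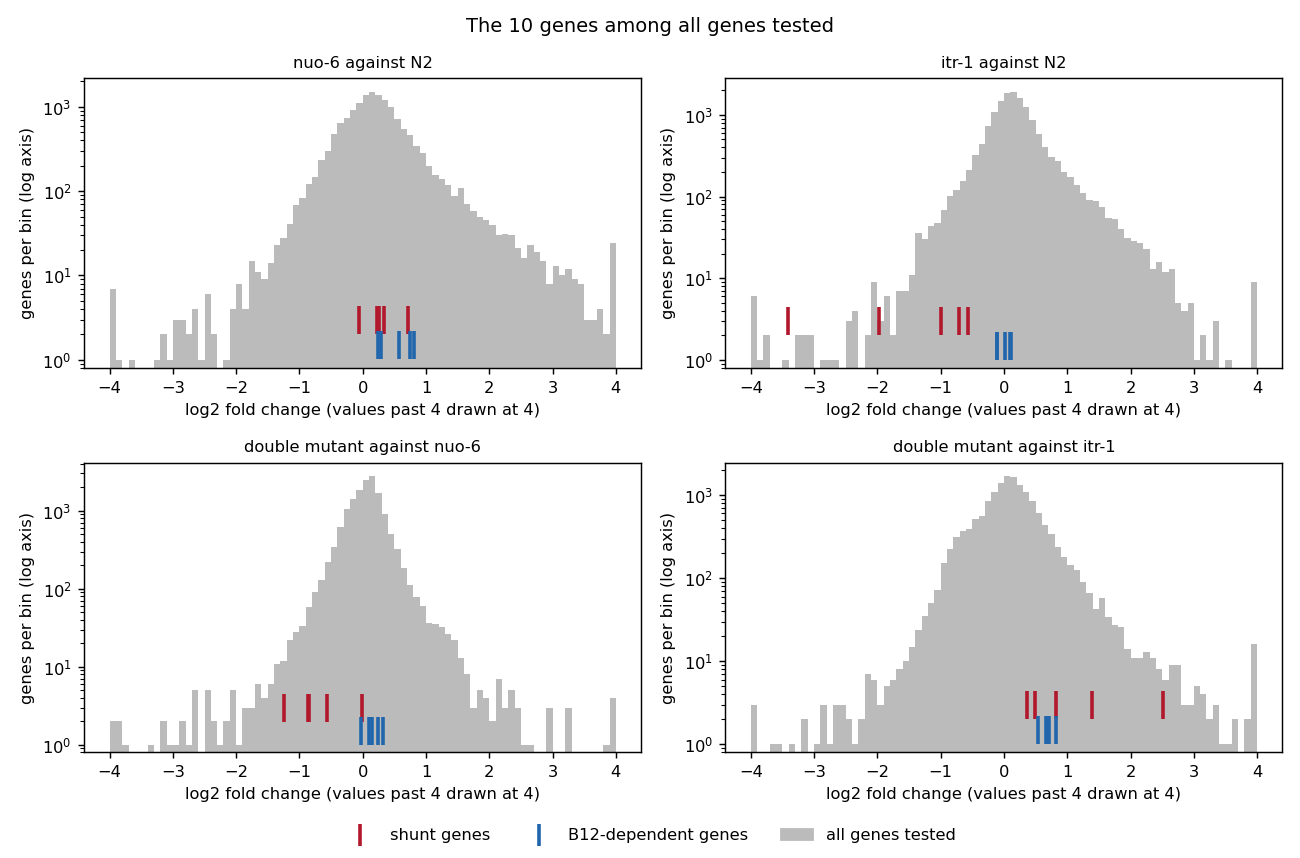
Histograms of the log2 folds of all 15230 genes tested (grey, counts on a log axis) in 4 comparisons, with the 5 shunt genes as red ticks and the 5 B12-dependent genes as blue ticks; the height of a tick has no meaning. In itr-1 against N2 the red ticks run along the lower tail to -3.42 and the blue ticks sit at the centre, and in the double mutant against itr-1 both sets lie on the upper side.

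The interaction asks whether the itr-1 allele changed a gene by the same amount in nuo-6 worms as in N2 worms. The shunt fell less with itr-1 in the nuo-6 background for 3 of its 5 genes, where 3.69% of all genes tested had a positive interaction that passed. None of the 10 had a negative one that passed, where 8.32% of all genes did. The fold of acdh-1 was -1.24 in the nuo-6 background and -3.42 in N2, a difference of 2.18 ± 0.45 (adjusted p = 0.013). For hphd-1 the folds were -0.84 and -1.98 in the same order, a difference of 1.13 ± 0.21 (adjusted p = 0.00828), and for alh-8 they were -0.02 and -0.57, a difference of 0.55 ± 0.08 (adjusted p = 0.00248). For ech-6 and hach-1 the difference did not pass, at 0.12 with an interval of -0.20 to 0.44 and 0.14 with an interval of -0.09 to 0.37. Of the B12-dependent genes pcca-1 passed, at 0.42 ± 0.11 (adjusted p = 0.0352), and its call was lost in 12 of 24 alternatives. The positive differences of acdh-1, hphd-1 and alh-8 passed when any single library was left out. They did not pass with the adult marker mean as a covariate (1.51, 0.78 and 0.39, adjusted p = 0.238, 0.182 and 0.0618), while pcca-1 was at 0.42 with that covariate and did not pass (adjusted p = 0.234). Nor did acdh-1 and hphd-1 pass with the oocyte marker mean (1.76 and 0.88, adjusted p = 0.0956 and 0.0685). Of the 6 adult markers 3 had a negative interaction and none a positive one, with a median of -4.43 on the log2 scale. The adult covariate thus differed along the contrast tested. Its fit cannot fully tell the interaction and the marker level apart, and the part of stage was not tested.

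Set side by side, the strains took 4 different positions in the levels of both routes. The summed level of the 5 shunt genes was 1048 to 1128 TPM in the double mutant, 1515 to 1996 in nuo-6, 562 to 595 in itr-1 and 1124 to 1631 TPM in N2. The summed level of the B12-dependent genes was 727 to 807 TPM in the double mutant, 651 to 700 in nuo-6, 473 to 485 in itr-1 and 461 to 534 TPM in N2. Both itr-1 strains were therefore low in the shunt relative to the strain without that allele, and both nuo-6 strains were high in the B12-dependent route. The ratio of the shunt sum to the B12-dependent sum averaged 1.44 ± 0.124 in the double mutant, 2.68 ± 0.452 in nuo-6, 1.21 ± 0.0507 in itr-1 and 2.99 ± 0.77 in N2 (SD, n = 3 each). All 6 libraries with the itr-1 allele had a ratio of 1.53 or less and all 6 without it one of 2.10 or more. Without acdh-1, the means were 1.13, 1.84, 1.12 and 2.04 in the same order of strains, and the 2 sets of 6 still did not overlap, with 1.16 as the highest ratio with the itr-1 allele and 1.60 as the lowest without it.

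**Figure D4:**
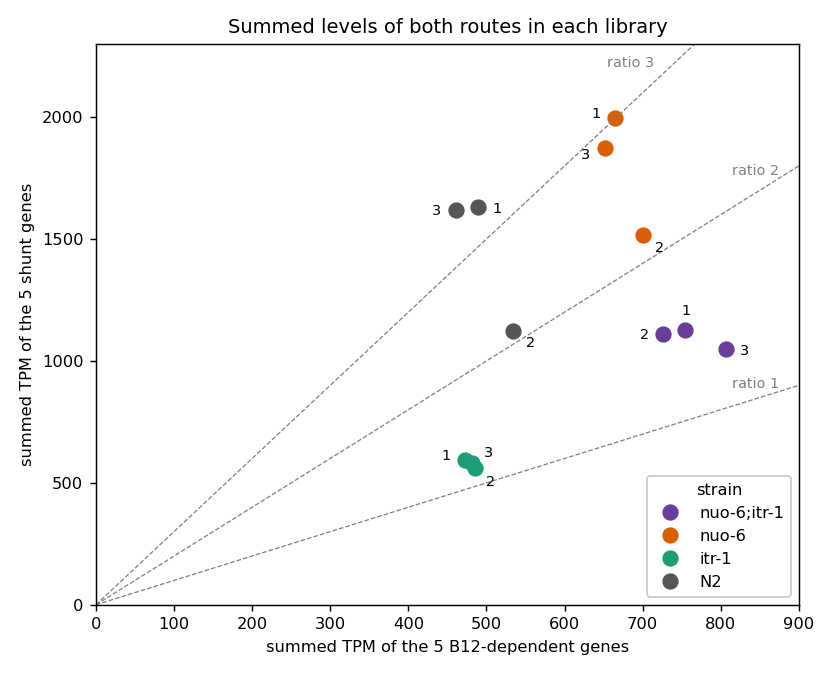
Summed TPM of the 5 shunt genes (vertical axis) against summed TPM of the 5 B12-dependent genes (horizontal axis), 1 point per library, coloured by strain and labelled with the replicate number. Dashed lines mark shunt to B12-dependent ratios of 1, 2 and 3. Libraries of the double mutant and itr-1 lie between the lines for 1 and 2, and those of nuo-6 and N2 lie above the line for 2.

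Within strains, most pairs of genes from 1 route moved together between libraries, and most pairs across the routes moved oppositely. The largest deviation was that of acdh-1 in N2 replicate 2, which lay 0.73 below its strain mean on the log2(TPM + 1) scale, and hphd-1 in the same library lay 0.42 below, while pcca-1 there lay 0.17 above. In itr-1 and nuo-6, too, acdh-1 was lowest in replicate 2 (29.7 and 397 TPM). In the double mutant it was lowest in replicate 3, at 180 TPM, where pcca-1 and pccb-1 were the highest of all 12 libraries. Across the 12 libraries, deviations from the strain mean gave a median Pearson r of 0.84 over the 10 pairs of shunt genes and 0.71 over the 10 pairs of B12-dependent genes. Between the routes it was -0.67 over 25 pairs, the lowest being -0.92 for acdh-1 and mmcm-1 and the highest 0.15 for alh-8 and pccb-1. The lowest within a route were 0.49 for acdh-1 and alh-8 and 0.07 for pccb-1 and mmaa-1. These points share their libraries, and TPM shares a fixed sum within each, so the values are descriptions. Replicate 2 had the highest adult marker sum in each strain, 1779 TPM in the double mutant, 2767 in nuo-6, 4870 in itr-1 and 1220 in N2, and its part in the deviations was not tested.

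**Figure D5:**
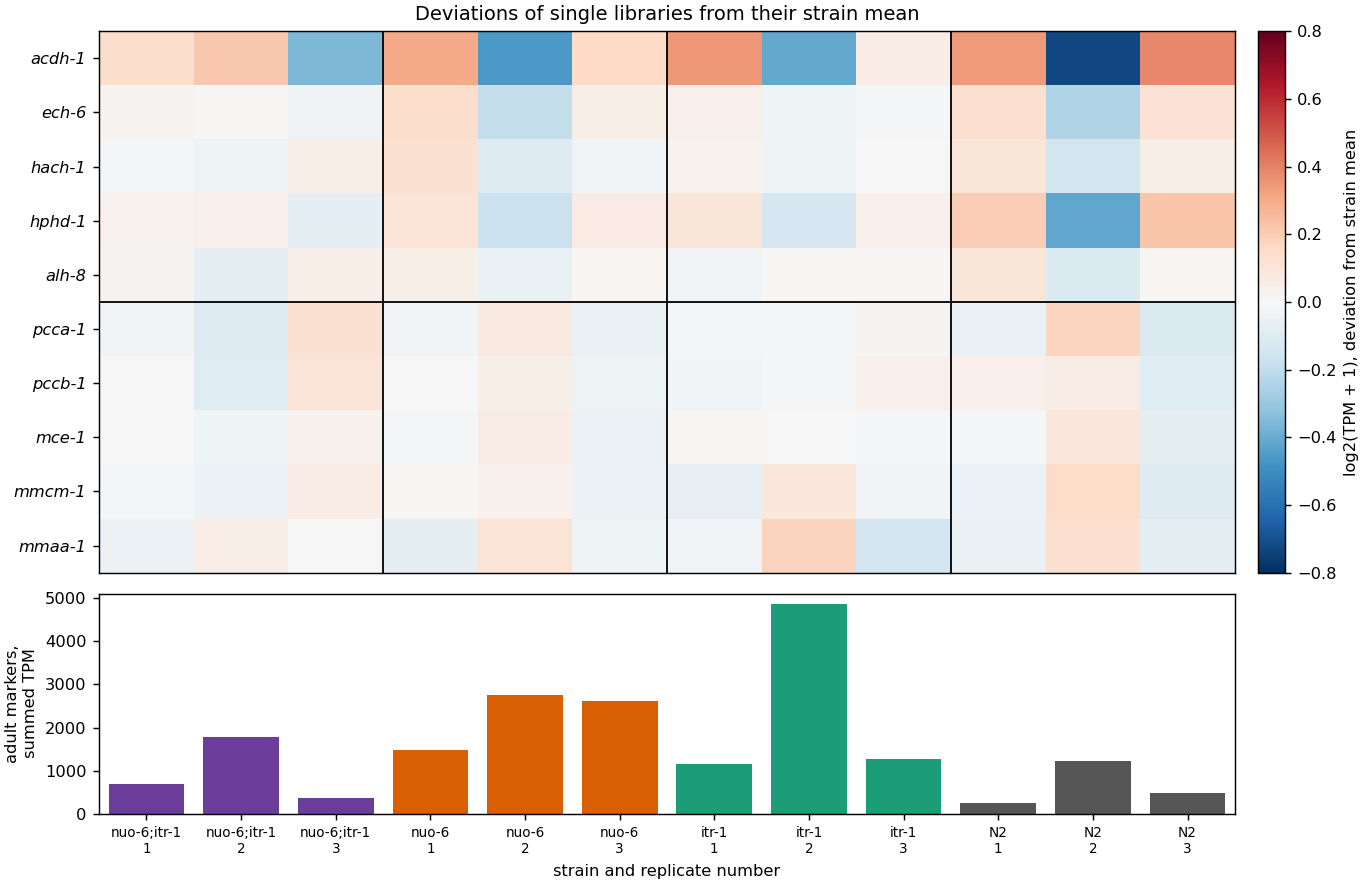
Upper panel, deviation of log2(TPM + 1) from the strain mean for the 10 genes (rows) in the 12 libraries (columns), red above and blue below the mean, with the shunt genes above the horizontal line. Lower panel, summed TPM of 6 adult markers in the same libraries. The deepest blue is acdh-1 in N2 replicate 2 at -0.73, over the highest of the N2 bars.

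Genes were ranked by their likeness to acdh-1 over the 12 libraries, as Pearson r of log2(TPM + 1) among 6545 named genes with at least 5 TPM on average. The nearest was hphd-1 at 0.995, followed by the folate transporter gene folt-2 at 0.979, then papl-1, spcs-1, ddo-2 and gst-13. The nuclear receptor gene nhr-68 and dhgd-1, whose enzyme recycles the hydroxyglutarate that HPHD-1 makes, came next at 0.967 each. Of the other shunt genes, hach-1 ranked 13, alh-8 18 and ech-6 19. Levels of folt-2 averaged 91.2 TPM in the double mutant, 196 in nuo-6, 36.3 in itr-1 and 135 TPM in N2, and those of dhgd-1 averaged 87.1, 117, 32.9 and 89.4 TPM in the same order. On deviations from the strain means, which leave the strain differences out, hphd-1 (0.950), ech-6 (0.904) and nhr-68 (0.901) came nearest to acdh-1, and mmcm-1 ranked 6540 of 6545. The genes most like mmcm-1 in level were acs-21, rep-1, ugt-21, memo-1, pck-1, vps-16, nhr-103 and vps-34 at 0.986 to 0.992, with mce-1 at rank 46. Among these, pck-1, which encodes the gluconeogenic enzyme phosphoenolpyruvate carboxykinase, averaged 445 TPM in the double mutant, 302 in nuo-6, 133 in itr-1 and 116 TPM in N2.

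Regulators of the shunt were followed as a list of 6, with nhr-10 and nhr-68, the nuclear receptors known to switch the shunt on under lasting propionate, and nhr-114, nhr-49, mdt-15 and sbp-1. The receptor gene nhr-68 fell by 1.29 ± 0.20 in itr-1 against N2 (adjusted p = 7.48e-04), with means of 12.3 TPM in itr-1 and 31.7 TPM in N2, and rose by 1.07 ± 0.20 in the double mutant against itr-1 (adjusted p = 0.0015). Its interaction of 1.08 ± 0.28 passed as well (adjusted p = 0.0325). It did not pass in the double mutant against nuo-6, where 4 shunt genes fell, at -0.21 with an interval of -0.65 to 0.23, nor against N2, where 3 fell, at -0.22 with an interval of -0.66 to 0.22. Mean levels of nhr-68 were 26.7 TPM in the double mutant, 31.3 in nuo-6 and 31.7 TPM in N2. The mediator subunit gene mdt-15 and nhr-49 rose in itr-1 against N2 by 0.36 ± 0.06 and 0.31 ± 0.06, so that 2 of the 6 rose and 1 fell, against 1 and 2 with median-of-ratios scaling. In nuo-6 against N2 4 rose, with nhr-10 at 0.44 ± 0.11, and none passed with median-of-ratios scaling. In the double mutant 3 rose against N2, 2 against nuo-6 and 4 against itr-1, with 0 falls, and with that scaling 3, 0 and 2 rose. Of all genes tested, 29.0% rose and 11.1% fell in itr-1 against N2, and 37.3% rose in nuo-6 against N2. In the double mutant 46.3% rose against N2, 9.99% against nuo-6 and 29.3% against itr-1, and 17.0%, 5.46% and 16.4% fell.

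Genes that handle vitamin B12 and the methionine synthase cycle (6 listed) had both rises and falls in every comparison of strains. The gene pmp-5, an ABC transporter gene whose human counterpart ABCD4 exports B12 from lysosomes, fell in itr-1 against N2 by 1.65 ± 0.18 (adjusted p = 7.67e-05). Levels of pmp-5 averaged 12.2 ± 2.05 TPM in the double mutant, 23.2 ± 3.02 in nuo-6, 14.1 ± 0.159 in itr-1 and 47.5 ± 12.3 TPM in N2 (SD, n = 3 each). The methionine synthase gene metr-1, the other B12 enzyme of the worm, fell by 0.62 ± 0.07 in nuo-6 against N2 (adjusted p = 2.92e-05) and by 0.27 ± 0.07 in itr-1 against N2 (adjusted p = 0.0108). Its interaction was 0.42 ± 0.10 (adjusted p = 0.0206). The cofactor genes mmab-1 and cblc-1 rose by 0.32 ± 0.05 and 0.50 ± 0.09 in nuo-6 against N2. Counts of rises and falls were 3 and 3 in nuo-6 against N2, 1 and 2 in itr-1 against N2, 2 and 2 in the double mutant against N2, 1 and 1 against nuo-6 and 2 and 1 against itr-1. With median-of-ratios scaling they were 1 and 3, 0 and 4, 1 and 3, 0 and 2 and 2 and 1. Without that scaling, 52.3%, 40.1%, 63.3%, 15.4% and 45.7% of all genes tested changed in these comparisons, in the same order.

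Branched-chain amino acid breakdown, a source of propionyl-CoA, had 14 tested genes of 18 listed. In itr-1 against N2 0 rose and 8 fell (0 and 12 with median-of-ratios scaling), with a median of -0.18 against 0.14 for all genes. The falls with the smallest adjusted p were those of mccc-2, a subunit of methylcrotonyl-CoA carboxylase, at -0.28 ± 0.04 and of the dehydrogenase complex genes dbt-1 and bckd-1B at -0.30 ± 0.05 and -0.26 ± 0.05. In the double mutant against nuo-6 0 rose and 8 fell under both scalings, with bckd-1B at -0.47 ± 0.05 (adjusted p = 1.23e-04) and a median of -0.24 against 0.07. In nuo-6 against N2 11 rose and 1 fell, but 3 and 2 with median-of-ratios scaling, led by the thiolase gene kat-1 at 0.57 ± 0.05 and the acyl-CoA dehydrogenase gene acdh-9 at 0.69 ± 0.06. The double mutant counted 6 rises and 4 falls against N2, but 0 and 7 with that scaling, and 8 and 1 against itr-1, with 5 and 1. No gene of the list had an interaction that passed limma's test, where 3.69% of all genes had a positive and 8.32% a negative one. In itr-1 against N2 29.0% of all genes rose and 11.1% fell, and in nuo-6 against N2 37.3% rose. In the double mutant 46.3% rose and 17.0% fell against N2. Against nuo-6 9.99% rose and 5.46% fell, and against itr-1 29.3% rose and 16.4% fell.

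Downstream of the mutase, 7 genes of succinyl-CoA metabolism and succinate oxidation were tested. In nuo-6 against N2 5 rose and 2 fell (1 and 2 with median-of-ratios scaling), and the succinate dehydrogenase gene sdhb-1 rose by 0.57 ± 0.05 (adjusted p = 3.93e-06). In itr-1 against N2 0 rose and 2 fell (0 and 4 with that scaling), the succinyl-CoA ligase genes sucl-2 at -0.45 ± 0.07 and suca-1 at -0.25 ± 0.06, and in the double mutant against nuo-6 sucl-2 was again at -0.45 ± 0.07, with 3 falls in all. The 4 tested genes of transsulfuration (6 listed), the path by which methionine carbon also reaches propionyl-CoA, counted 1 rise and 2 falls in nuo-6 against N2 (0 and 2 with median-of-ratios scaling), with the cystathionine beta-synthase gene cbs-2 at -1.05 ± 0.11. In itr-1 against N2 only cbs-2 passed, at -0.51 ± 0.11, and in the double mutant against itr-1 cth-1, a cystathionine gamma-lyase gene, fell by 1.25 ± 0.15. The shares of all genes tested that changed were 52.3% in nuo-6 against N2 and 40.1% in itr-1 against N2. They were 15.4% in the double mutant against nuo-6 and 45.7% against itr-1.

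Relatives of the shunt enzymes were followed by family, and their counts in itr-1 against N2 are to be read beside the 29.0% of all genes that rose and the 11.1% that fell. In the double mutant against itr-1 29.3% of all genes rose and 16.4% fell. In nuo-6 against N2 37.3% rose, and 52.3% changed in either direction. Of 12 other acdh genes, 2 rose and 2 fell in itr-1 against N2, with acdh-4 at 0.98 ± 0.17 and acdh-2 at -0.84 ± 0.23. In the double mutant against itr-1 5 rose and 2 fell, led by acdh-2 at 4.63 ± 0.23 (adjusted p = 3.99e-07), which had also risen by 3.89 ± 0.23 in nuo-6 against N2. Of 9 other ech genes, ech-9 rose by 5.82 ± 0.21 in itr-1 against N2 (adjusted p = 7.12e-08) and by 3.83 ± 0.21 in the double mutant against nuo-6, where the shunt hydratase ech-6 fell by 0.99 and 0.87, and 1 other gene of the family, ech-5, fell in the first of these. Of 11 other alh genes tested, 3 rose and 4 fell in itr-1 against N2, with alh-4 at 0.74 ± 0.09. In nuo-6 against N2, where alh-8 did not pass, 7 rose and 3 fell (3 and 3 with median-of-ratios scaling), with alh-5 at 1.83 ± 0.14. With that scaling the counts in itr-1 against N2 were 2 and 5 for the acdh genes, 1 and 4 for the ech genes and 2 and 5 for the alh genes. Some acdh, ech and alh genes are also in the list of branched-chain amino acid breakdown.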

How the data were processed

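Stranded libraries of polyA-selected RNA from whole L4 worms were sequenced, per the labels' protocols. The values, as deposited by the authors, are TPM per gene in 12 libraries, and TPM keeps no depth. WBcel235 is the only build in the submitters' processing notes. Aligner, counting tool and annotation: not given in the sources used here. A further small table of column headings held no measurements and was not used. Gene names and positions came from the Ensembl annotation, release 115, which held all 46926 identifiers.

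For this report a linear model was fitted to log2(TPM + 1) of every gene reaching 1 TPM in 3 or more libraries (15230 genes), using limma 3.58.1 (R 4.3.3) with a trended eBayes prior. All 12 libraries entered 1 fit with a mean per strain, 8 residual and 2.85 prior degrees of freedom. The pseudocount of 1 understates folds of genes with low TPM. Tests were two-sided, p-values were adjusted by Benjamini-Hochberg over all genes tested, the threshold was 0.05 and intervals are 95%. The procedure was tested on simulated data. Members and gene lists were chosen with earlier results of these data known.

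The text names all 10 genes, up to 3 changed members with the smallest adjusted p from every other list and comparison, and the 8 genes most like acdh-1 or mmcm-1. Of 147 other listed names 140 were matched. The fit was repeated with pseudocounts of 0.5 and 0.1, without a filter, with 5 TPM as the filter, after median-of-ratios scaling or quantile normalization, on the compared strains alone, with array weights, without the trend, with replicate number as a block, and leaving out every library in turn. Another 3 repeats were chosen after seeing the data: without the libraries numbered 2, and with the oocyte or the adult marker mean as a covariate. Every mutant library had a higher oocyte marker mean than every N2 library, so against N2 that covariate cannot be told apart from strain. Other software was Python 3.11.15 with pandas 2.3.3, numpy 2.4.6 and, for plots, matplotlib 3.10.9.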

Additional observations from a re-analysis of the deposited data

Results flagged for a closer look

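For 4 of the 10 genes the effect of the itr-1 allele differed between the nuo-6 background and N2 by limma's test of the interaction. All 4 differences were positive, where 3.69% of all genes tested had a positive one that passed and 8.32% a negative one. The difference of the log2 folds (nuo-6 background minus N2) was 2.18 for acdh-1, 1.13 for hphd-1, 0.55 for alh-8 and 0.42 for pcca-1, with adjusted p of 0.013, 0.00828, 0.00248 and 0.0352. The call of pcca-1 was lost in 12 of 24 alternatives. For acdh-1, hphd-1 and alh-8 the itr-1 allele went with a fall in N2 that was smaller, or near 0, in the nuo-6 background, while pcca-1 was at 0.31 in the nuo-6 background and -0.10 in N2. The mean log2(TPM + 1) of the 6 adult markers was 4.02 to 6.91 in the double mutant, 6.82 to 8.11 in nuo-6, 6.91 to 9.33 in itr-1 and 5.18 to 7.56 in N2, and with that mean as a covariate the differences were 1.51, 0.78, 0.39 and 0.42 in the same order of genes, none of which passed (adjusted p = 0.238, 0.182, 0.0618 and 0.234). The adult markers had an interaction of their own, with a median of -4.43 on the log2 scale. The fit with that covariate therefore cannot fully tell the interaction and the marker level apart. Groups of 3 libraries are too small for a test of single outlying libraries.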

How the results depend on the processing

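Of 60 folds (10 genes in 6 comparisons), 28 kept direction and call under every alternative, among them the shunt falls in itr-1 against N2 and the rises of mce-1, mmcm-1 and mmaa-1 in nuo-6 and in the double mutant against N2. Over all folds and alternatives, 58 lost and 15 gained a call and 25 reversed. No reversal had a called fold at both ends. Median-of-ratios scaling gave 8 changed genes of the 10 in itr-1 against N2, where 5863 of the 15230 genes tested changed. It turned mce-1, mmcm-1 and mmaa-1 to -0.16, -0.067 and -0.075 and the median of the B12-dependent genes to -0.16. Quantile normalization gave -0.0067 and -0.052 for mce-1 and mmaa-1 and -0.052 for that median, and 0.14 for alh-8 in the double mutant against nuo-6. In this last fold alh-8 was also at 0.0065 with array weights, 0.0055 without nuo-6 replicate 1, 0.022 without double mutant replicate 2 and 0.0090 with the oocyte covariate. The fold of mmaa-1 there was 0.032 without nuo-6 replicate 2, 0.0020 without double mutant replicate 1, 0.0045 without the libraries numbered 2 and 0.15 with the adult covariate. Without N2 replicate 2 acdh-1 was at -0.032 in nuo-6 against N2. Without N2 replicate 3, mce-1 and the median of the B12-dependent genes were at -0.023 in itr-1 against N2. The oocyte covariate gave -0.0067 for mce-1, -0.17 for mmaa-1 and -0.011 for that median in itr-1 against N2, 0.033 and 0.042 for alh-8 in nuo-6 and in the double mutant against N2, and interactions of -0.027 for ech-6 and 0.096 for mmaa-1. The adult covariate gave interactions of -0.11 for ech-6, -0.063 for hach-1 and 0.15 for mmaa-1. The causes were not tested. With each library left out in turn, these folds ran from -0.032 to 0.56 for acdh-1 in nuo-6 against N2, from -0.023 to 0.062 for mce-1 and for the median in itr-1 against N2, and from -0.048 to 0.022 for alh-8 and -0.058 to 0.032 for mmaa-1 in the double mutant against nuo-6.

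Of the 10 genes, 5 changed in the double mutant against N2 with the oocyte covariate, where 8377 of the 15230 genes tested did. Without it 8 of the 10 changed, where 9647 of all genes did. Of the 10 genes, 1 had an interaction with the oocyte and 0 with the adult covariate (4 without), where 786 and 393 of all genes had one (1829 without). Leaving out a library left 3 to 6 changed in the double mutant against nuo-6, 3 without nuo-6 replicate 1 or 3 or double mutant replicate 1 or 3. Over all genes, 2353 changed in the double mutant against nuo-6, 7848 with array weights, 3864 with the oocyte covariate and 1163 to 2635 with a library left out. The interaction passed for 1829 genes, 3936 with array weights, 786 and 393 with the oocyte and adult covariates and 881 to 2637 with a library left out. In itr-1 against N2 6109 changed, 1996 with the oocyte covariate. Rises and falls over all genes were 5676 and 2292 in nuo-6 against N2, 4413 and 1696 in itr-1 against N2, 7059 and 2588 in the double mutant against N2, 1522 and 831 against nuo-6, 4463 and 2501 against itr-1, and 562 and 1267 in the interaction. With median-of-ratios scaling they were 3645 and 3851, 2525 and 3338, 4234 and 4603, 820 and 1200, 3188 and 3524, and 1054 and 1166, and with quantile normalization 3176 and 4297, 2121 and 3032, 3754 and 4728, 1068 and 1025, 3241 and 3582, and 1073 and 995.

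Whether equal replicate numbers mark a shared batch is not stated in the labels. Deviations from the strain mean of same-numbered libraries correlated at -0.02 to 0.51 over 18 pairs (median 0.12), and those of differently numbered libraries at -0.47 to 0.29 over 36 pairs (median -0.08). On average, 7 of 12 libraries correlated best with their own number. Replicate 2 of every strain was among them, with mean r of 0.31 in the double mutant, 0.19 in nuo-6, 0.40 in itr-1 and 0.28 in N2. With the replicate number as a block, 2762 genes had an interaction, and the number of the 10 genes that changed was the same in each of the 6 comparisons. TPM keeps no depth, so counting error is not known.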

Other observations

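Other tissue markers moved between the strains as well. Of 8 muscle markers, 4 fell and 0 rose in the double mutant against N2, 4 fell and 0 rose against nuo-6 and 5 fell and 0 rose against itr-1, (6, 4 and 6 fell with median-of-ratios scaling), with the troponin gene tnt-2 at -0.59 ± 0.04 against N2 (adjusted p = 3.97e-07 by limma). The summed muscle marker level was 3210 to 3281 TPM in the double mutant, 4067 to 4215 in nuo-6, 3613 to 3691 in itr-1 and 4369 to 4520 TPM in N2. All 8 neuron markers rose in the double mutant against N2 (4 with median-of-ratios scaling), with the synaptobrevin gene snb-1 at 0.65 ± 0.05 (adjusted p = 2.07e-06), and their sum was 587 to 650 TPM in the double mutant, 507 to 564 in nuo-6, 436 to 473 in itr-1 and 375 to 395 TPM in N2. Of 10 sperm markers 9 fell in the double mutant against itr-1 (10 with median-of-ratios scaling), with summed levels of 91.8 to 189 TPM in the double mutant and 196 to 269 TPM in itr-1. Of 8 hypodermis markers, 4 rose and 1 fell in the double mutant against N2 (3 and 4 with median-of-ratios scaling), with summed levels of 2989 to 3834 TPM in the double mutant and 3086 to 3258 TPM in N2. Of all genes tested, 46.3% rose and 17.0% fell in the double mutant against N2. Against nuo-6 9.99% rose and 5.46% fell, and against itr-1 29.3% rose and 16.4% fell.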
